A study of Mus musculus with 12 samples.

Results

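Blood vessel genes were read in 12 mouse cerebellar samples, across medulloblastoma, the cerebellum beside it and the cerebellum of tumor-free mice. The set comprised 10 genes of endothelial cells, pericytes and the VEGF pathway, chosen by name: *Pecam1*, *Cldn5*, *Cdh5*, *Kdr*, *Flt1*, *Tek*, *Vegfa*, *Slc2a1*, *Pdgfrb* and *Plvap*. The choice was made with earlier results of these data known. Each name matched 1 row among the 24091 genes measured by poly(A) RNA sequencing, and all 10 passed the expression filter in every comparison. Values are TPM, a measure of transcript abundance scaled for transcript length and for the sum of each sample, so that levels of different genes may be set side by side.

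The samples formed 4 groups of 3. Medulloblastomas came from mice GB344, GB359 and GB370, which were mutant for both *Brca2* and *Trp53* (Brca2-mut;Trp53-mut), and adjacent cerebellum was taken from the same 3 mice. Control cerebella came from 3 Brca2-mut;Trp53-WT mice (GB361, GB508 and GB512) and 3 Brca2-WT;Trp53-mut mice (GB517, GB519 and GB520), so every group carried at least 1 of the mutations and no doubly wild-type cerebellum was analysed. Mutant *Brca2* lacks exons 3 and 4 wherever a human *GFAP* promoter drove Cre in the developing central nervous system, whereas *Trp53* was inactivated in the whole animal by a neo cassette. Vessels of the Trp53-mut mice thus carry the *Trp53* mutation, whereas endothelial cells do not arise from the neural precursors in which this Cre is active. The labels give no ages, and the study describes its controls as age-matched.

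Brain capillaries are tubes of endothelial cells sealed by tight junctions and wrapped by pericytes, and together with astrocyte end feet they form the blood-brain barrier. Neural and glial cells secrete VEGF-A, which binds KDR (VEGFR2), the main signaling receptor on endothelium, and FLT1 (VEGFR1), which binds the ligand tightly but signals weakly and acts largely as a trap. Low oxygen raises *Vegfa* and *Slc2a1* transcription through HIF factors. Vessels without a barrier, such as those of the choroid plexus, have fenestrae bridged by a diaphragm made of PLVAP.

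In tumors, the vascular genes did not move as a block. *Plvap*, *Flt1*, *Vegfa* and *Slc2a1* fell against the control cerebella, by between 1.18 (*Slc2a1*) and 2.47 (*Plvap*) on the log2 scale. *Cldn5*, *Cdh5* and *Kdr* stood higher in all 3 tumors than in all 6 controls, but none of them reached the fold change required for a call. *Pecam1* and *Pdgfrb* overlapped between the groups. These tissue pieces were sequenced in bulk, and fewer cells of a type and less RNA per cell cannot be told apart.

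Several properties of the samples bear on all that follows. Between 15088 and 15803 genes reached 1 TPM per sample, and the read depth is unknown because only TPM was deposited. A single microRNA gene, *Mir6236*, took 4.25% to 11.5% of the TPM of a sample. Gene sums do not resolve exons and so do not test the deletions. *Brca2* was 8.22 to 14.6 TPM in tumors and 3.24 to 4.4 TPM in control cerebella. *Trp53* was 124 to 130 TPM in tumors, 47.1 to 49.4 TPM in Brca2-WT;Trp53-mut cerebella and 33.1 to 37.2 TPM in Brca2-mut;Trp53-WT cerebella. Summed over 10 markers of granule progenitors and hedgehog-driven medulloblastoma, tumors reached 2507 to 3164 TPM and controls 68.45 to 101.9 TPM. In adjacent cerebellum the sum was 969.2 TPM in GB344, 790.7 TPM in GB359 and 128.8 TPM in GB370. All 3 adjacent samples therefore exceeded the highest control in tumor cell markers. Choroid plexus markers summed to 4879 to 6346 TPM in Brca2-WT;Trp53-mut cerebella, 120.7 to 1194 TPM in Brca2-mut;Trp53-WT cerebella and 61.23 to 71.45 TPM in tumors. Their part in the results below was not tested.

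**Figure D1:**
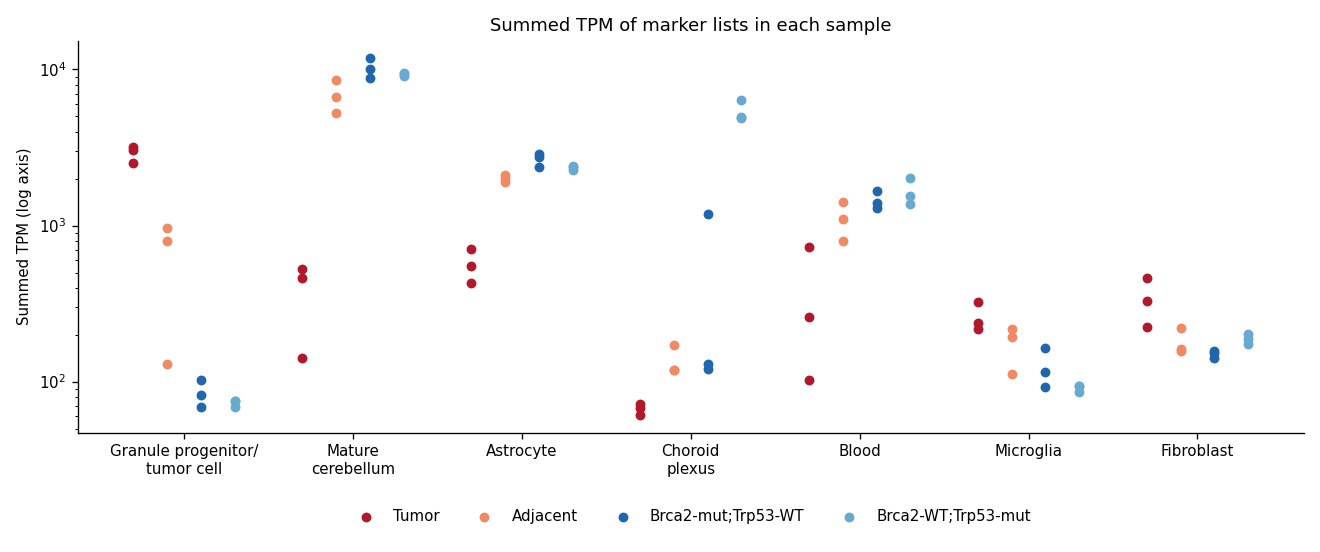
Summed TPM (log axis) of 7 lists of marker genes of other cell types in each sample, with 1 point per sample and colors for the 4 groups. Adjacent samples lie between tumors and controls for granule progenitor markers, and choroid plexus markers are highest in the 3 Brca2-WT;Trp53-mut cerebella.

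The 10 genes lie on 7 chromosomes of the mouse genome (GRCm38.p6, mm10), and 9 are given here as the RefSeq gene span. *Kdr* (chr5:75932827-75979072) and *Flt1* (chr5:147561604-147726438) share chromosome 5. *Tek* (chr4:94739086-94874976) and *Slc2a1* (chr4:119108745-119137330) share chromosome 4. *Cdh5* (chr8:104101613-104144504) and *Plvap* (chr8:71497753-71511806) share chromosome 8. *Pecam1* lies at chr11:106654213-106715281, *Cldn5* at chr16:18776847-18778262 and *Vegfa* at chr17:46016993-46032377.

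RefSeq promoter windows, 250 bases before to 50 after a start site, were at hand for 6 of the 10 genes (*Cldn5*, *Kdr*, *Flt1*, *Tek*, *Vegfa* and *Slc2a1*) and not for *Pecam1*, *Cdh5*, *Pdgfrb* and *Plvap*. The 250 bases upstream of the gene are shown for *Slc2a1* and *Vegfa*, which fell together in tumors and are textbook HIF targets, and for *Cldn5*, which did not fall. Each is written in the direction of transcription, and capitals mark the HIF core ACGTG or GCGTG on either strand.
Slc2a1, chr4:119108495-119108744, plus strand: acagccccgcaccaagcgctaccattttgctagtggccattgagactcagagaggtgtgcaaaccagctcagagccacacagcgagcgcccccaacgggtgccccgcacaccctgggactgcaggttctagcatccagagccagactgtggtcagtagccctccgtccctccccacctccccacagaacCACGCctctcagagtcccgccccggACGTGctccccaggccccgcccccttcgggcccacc
Vegfa, chr17:46032378-46032627, minus strand: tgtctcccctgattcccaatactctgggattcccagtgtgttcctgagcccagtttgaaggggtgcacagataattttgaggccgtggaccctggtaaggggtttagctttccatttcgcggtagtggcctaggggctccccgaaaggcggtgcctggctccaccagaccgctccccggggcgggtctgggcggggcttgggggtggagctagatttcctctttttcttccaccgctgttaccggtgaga
Cldn5, chr16:18776597-18776846, plus strand: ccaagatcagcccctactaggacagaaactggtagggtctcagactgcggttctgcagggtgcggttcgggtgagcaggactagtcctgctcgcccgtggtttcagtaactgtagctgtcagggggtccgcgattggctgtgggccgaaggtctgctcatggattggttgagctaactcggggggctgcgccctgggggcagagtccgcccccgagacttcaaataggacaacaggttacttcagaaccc
The *Slc2a1* window held 2 matches to the HIF core, whereas the *Vegfa* and *Cldn5* windows shown held 0. A second *Vegfa* window, which starts inside the gene, held 2 matches, *Kdr* held 2, *Flt1* held 1 and *Tek* held 0. Of 32851 mouse windows of 300 bases, 43.8% had at least 1 such match, so the core is common. The ETS core GGAA, bound by factors that regulate many endothelial genes, had 6 matches in the first *Vegfa* window, 3 in the second, 5 in *Kdr*, 4 in *Flt1*, 2 in *Tek* and 0 in *Cldn5* and *Slc2a1*, and 96% of all windows had at least 1. A match is a string of letters, and no binding was measured here. Sequence beyond these windows was not searched, so a count of 0 does not mean that a gene lacks such sites.

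The first question was whether the endothelium marker genes differed between tumor and control cerebellum. *Pecam1* encodes CD31, a junctional adhesion molecule of all endothelial cells. It was 9.40, 10.6 and 16.2 TPM in the tumors of GB344, GB359 and GB370, respectively, and 12.7 to 15.1 TPM (median 14.2) in the 6 controls. GB344 and GB359 lay below every control and GB370 above, so the groups overlapped (log2 fold change -0.24 ± 0.151 (SE), adjusted p = 0.181 by limma). Without GB370 it was -0.45 (adjusted p = 0.00509), below the fold minimum for a call, and without GB344 it was -0.09. *Cldn5*, the claudin that seals the tight junctions of brain endothelium, was 57.6, 60.9 and 84.3 TPM in the same tumors and 36.2 to 50.5 TPM (median 44.6) in controls. Its log2 fold change was 0.58 ± 0.136 (adjusted p = 0.00296), which is below the required log2 fold change of 1. *Cdh5*, or VE-cadherin, the adherens junction protein of endothelium, was 11.7, 10.5 and 23.3 TPM in tumors and 8.66 to 10.1 TPM (median 9.08) in controls. GB370 alone held the high value. The log2 fold change of *Cdh5* was 0.57 ± 0.208 (adjusted p = 0.0295), and without GB370 it was 0.24 (adjusted p = 0.0909).

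The VEGF receptors went in opposite directions. *Kdr* was 8.15, 7.57 and 11.7 TPM in the 3 tumors in that order and 5.24 to 6.73 TPM (median 5.49) in controls. Every tumor exceeded every control, with a log2 fold change of 0.57 ± 0.148 (adjusted p = 0.0058, limma) that missed the fold minimum. *Flt1* was 5.47, 8.18 and 12.5 TPM in tumors and 24.6 to 29.8 TPM (median 25.9) in controls. The highest tumor value was below the lowest control, and *Flt1* fell by 1.56 ± 0.189 on the log2 scale (adjusted p = 3.06e-05), a ratio of means of 0.329. *Tek* encodes TIE2, the endothelial receptor of the angiopoietins, which steady mature vessels. Its level was 4.14, 3.56 and 4.92 TPM in tumors and 6.31 to 8.36 TPM (median 7.56) in controls, again without overlap. The log2 fold change of *Tek* was -0.70 ± 0.13 (adjusted p = 0.000654), short of the fold minimum.

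*Vegfa*, the ligand, was 44.2, 53.2 and 52.7 TPM in the tumors, in the same order, and 93.8 to 143.9 TPM (median 122.2) in controls. The tumors were tightly grouped, all below the controls, and *Vegfa* fell by 1.23 ± 0.147 on the log2 scale (adjusted p = 2.8e-05, limma). *Slc2a1* encodes GLUT1, which carries glucose across brain endothelium and is also made by astrocytes and other cells. It was 34.3, 40.4 and 54.9 TPM in tumors and 86.03 to 111 TPM (median 95.7) in controls and fell by 1.18 ± 0.139 (adjusted p = 2.6e-05). *Plvap*, the marker of fenestrated endothelium, was 2.25, 2.98 and 3.81 TPM in tumors and 16.5 to 25.6 TPM (median 21.4) in controls. The change in *Plvap* was the largest of the 10 genes, a fall of 2.47 ± 0.169 on the log2 scale (adjusted p = 4.04e-07) and a ratio of means of 0.143. *Pdgfrb* (chr18:61045127-61085067), the receptor by which pericytes are recruited to vessels, was 11.1, 5.46 and 11.6 TPM in tumors and 9.89 to 12.2 TPM (median 10.3) in controls. GB359 was the only tumor outside the control range. The log2 fold change of *Pdgfrb* was -0.23 ± 0.2 (adjusted p = 0.323), with a 95% interval of -0.68 to 0.22, and it was 0.08 without GB359.

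The order of the mean levels was not the same in controls and tumors, which is given as a description with no test. In the 6 controls *Vegfa* (mean 119.7 ± 21.05 TPM, SD) and *Slc2a1* (97.4 ± 9.74 TPM) stood highest, and their ranges overlapped. They were followed by *Cldn5* (44.3 ± 4.91 TPM), then *Flt1* (26.5 ± 1.82 TPM) and *Plvap* (21.1 ± 3.49 TPM), whose ranges overlapped, and then *Pecam1* (14.07 ± 0.893 TPM). The lowest were *Pdgfrb* (10.7 ± 0.997 TPM) and *Cdh5* (9.25 ± 0.582 TPM), which overlapped, and *Tek* (7.47 ± 0.799 TPM) and *Kdr* (5.77 ± 0.632 TPM), which also overlapped. In the 3 tumors *Cldn5* stood highest (67.6 ± 14.6 TPM), above *Vegfa* (50.03 ± 5.09 TPM) and *Slc2a1* (43.2 ± 10.6 TPM), which overlapped each other. *Cdh5*, *Pecam1*, *Pdgfrb*, *Kdr* and *Flt1* followed between 15.2 and 8.73 TPM with ranges that overlapped from neighbour to neighbour. *Tek* (4.21 ± 0.684 TPM) and *Plvap* (3.01 ± 0.785 TPM) were lowest and overlapped.

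**Figure D2:**
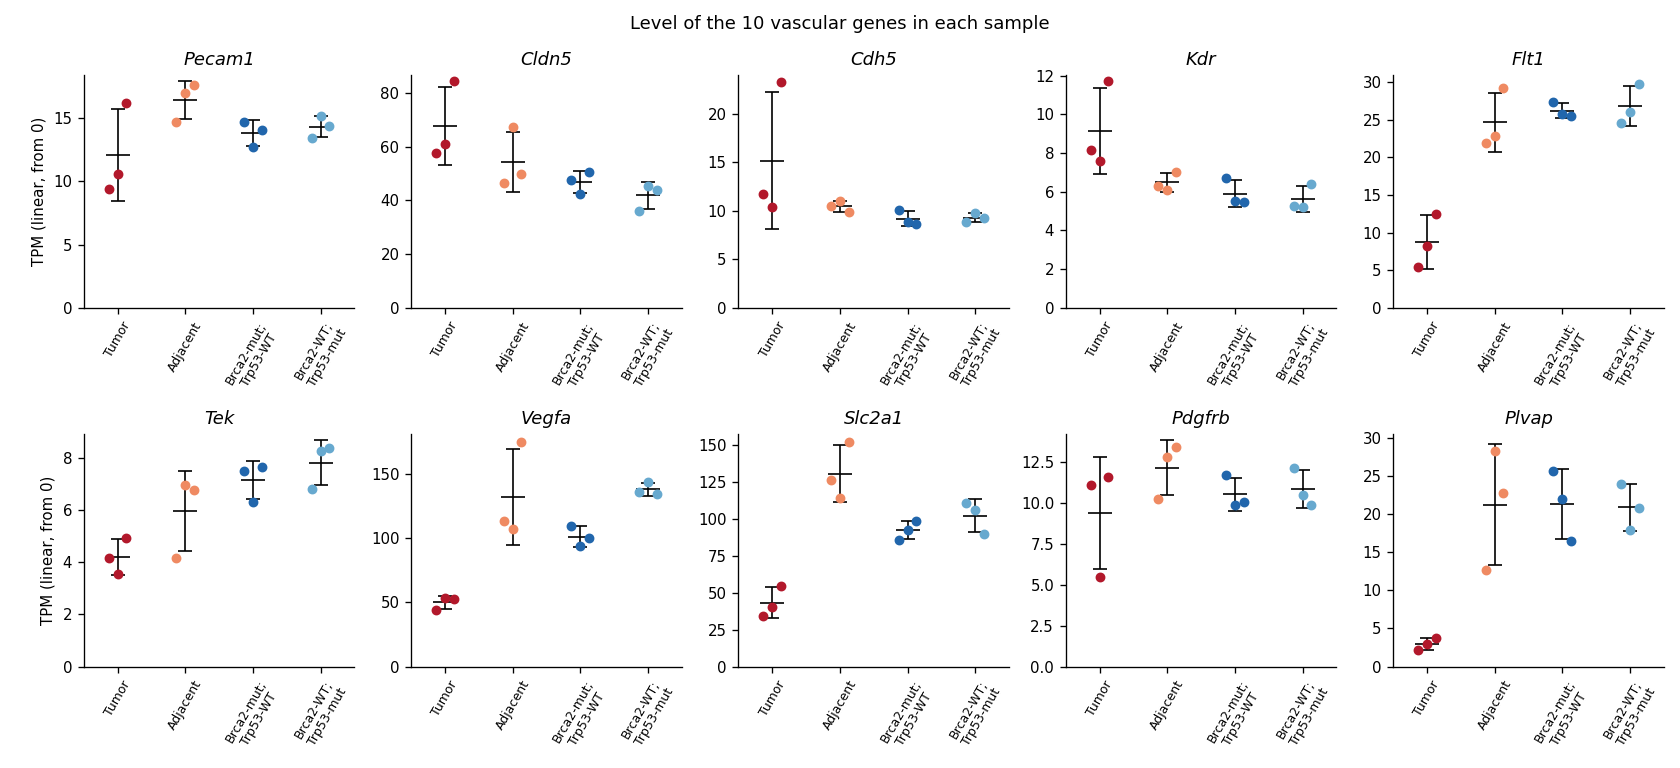
TPM of each of the 10 genes (linear axes from 0) in the 4 groups of 3 samples. Points are samples in the order of their mouse numbers, and black marks give the mean and SD. *Plvap*, *Flt1*, *Vegfa* and *Slc2a1* are lower in every tumor than in any other sample.

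Genes were called where the adjusted p was below 0.01 and the log2 fold change reached 1 in size. By this rule 4 of the 10 genes were called lower and 0 higher, beside 21.5% and 14.4% of the 16241 genes tested. With an adjusted p under 0.05 and no fold minimum, 5 were lower and 3 higher, beside 39.5% and 31.8% of all genes, and at an unadjusted p under 0.05 the same 8 passed, beside 40.6% lower and 32.9% higher of all genes. Groups did not overlap for 5 genes lower in tumors and 3 genes higher in tumors, beside 35.7% and 28.3% of all genes. The tumors thus differed from the controls across much of the transcriptome, and the counts of the 10 genes are not by themselves particular to them. Their median log2 fold change was -0.47, and that of all tested genes -0.107. The centre of all genes moved to -0.01 under median-of-ratios scaling and to 0.04 under quantile normalization, and the 4 calls remained under both.

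In the tumor samples other cell types moved as well, in a comparison where 21.5% of all genes were called lower and 14.4% higher. Astrocyte markers summed to 429 to 711.6 TPM in tumors and 2277 to 2893 TPM in controls, and 8 of 10 were called lower, led by *Gdf10* (-3.82), *Hopx* (-3.48), *Gja1* (-3.04) and *S100b* (-2.89), while *Sox9* (1.14), named after its value had been seen, was called higher, though not without the tumor of GB359. Astrocytes and Bergmann glia are a source of *Vegfa* in the brain and express *Slc2a1*, and their part in the fall of these genes was not tested. The sum of red cell and platelet markers was 102.8 to 726.7 TPM in tumors and 1290 to 2009 TPM in controls, and 3 of 5 tested were called lower, the globins *Hba-a2* (-2.54) and *Hbb-bs* (-2.53) and the heme enzyme *Alas2* (-1.07). Choroid plexus vessels express *Plvap*, and 2 of 10 choroid plexus markers, *Enpp2* (-4.67) and *Kcnj13* (-2.62), were called lower in tumors. This count was 8 against the Brca2-WT;Trp53-mut controls alone, 5 without GB508, 4 without GB512 and 1 without any other single sample. *Plvap* was 16.5 to 25.6 TPM in the Brca2-mut;Trp53-WT cerebella and 17.84 to 23.96 TPM in the Brca2-WT;Trp53-mut cerebella, which had the higher choroid plexus sums, and the part of choroid plexus in the *Plvap* values was not tested.

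Ratios between 2 genes of a sample do not depend on the scaling factor of that sample. *Flt1* to *Kdr*, the trap receptor against the signaling receptor, was 0.672, 1.08 and 1.07 in tumors GB344, GB359 and GB370, and 4.06 to 4.97 in controls. Tumors therefore held about equal or less *Flt1* than *Kdr*, where all 6 controls held several times more. *Plvap* to *Cldn5*, fenestral against tight-junction transcript, was 0.039 to 0.049 in tumors and 0.327 to 0.662 in controls. *Slc2a1* to *Cldn5* was 0.596 to 0.664 in tumors and 1.8 to 3.07 in controls. *Vegfa* to *Kdr*, ligand against receptor, was 4.5 to 7.03 in tumors and 16.3 to 27.5 in controls. In each of these 4 ratios the tumors lay below every control. *Kdr* to *Pecam1* lay above, at 0.714 to 0.867 in tumors and 0.346 to 0.457 in controls. *Pdgfrb* to *Pecam1*, pericyte against endothelial transcript, was 0.515 to 1.18 in tumors and 0.689 to 0.906 in controls, and these ranges overlapped. Adjacent cerebellum lay with the controls or close to them in all 6 ratios: *Flt1* to *Kdr* was 3.48 to 4.15, *Vegfa* to *Kdr* 17.6 to 24.9, *Slc2a1* to *Cldn5* 1.7 to 3.06, *Plvap* to *Cldn5* 0.272 to 0.458, *Kdr* to *Pecam1* 0.36 to 0.429 and *Pdgfrb* to *Pecam1* 0.698 to 0.764. No test was made on these ratios.

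**Figure D3:**
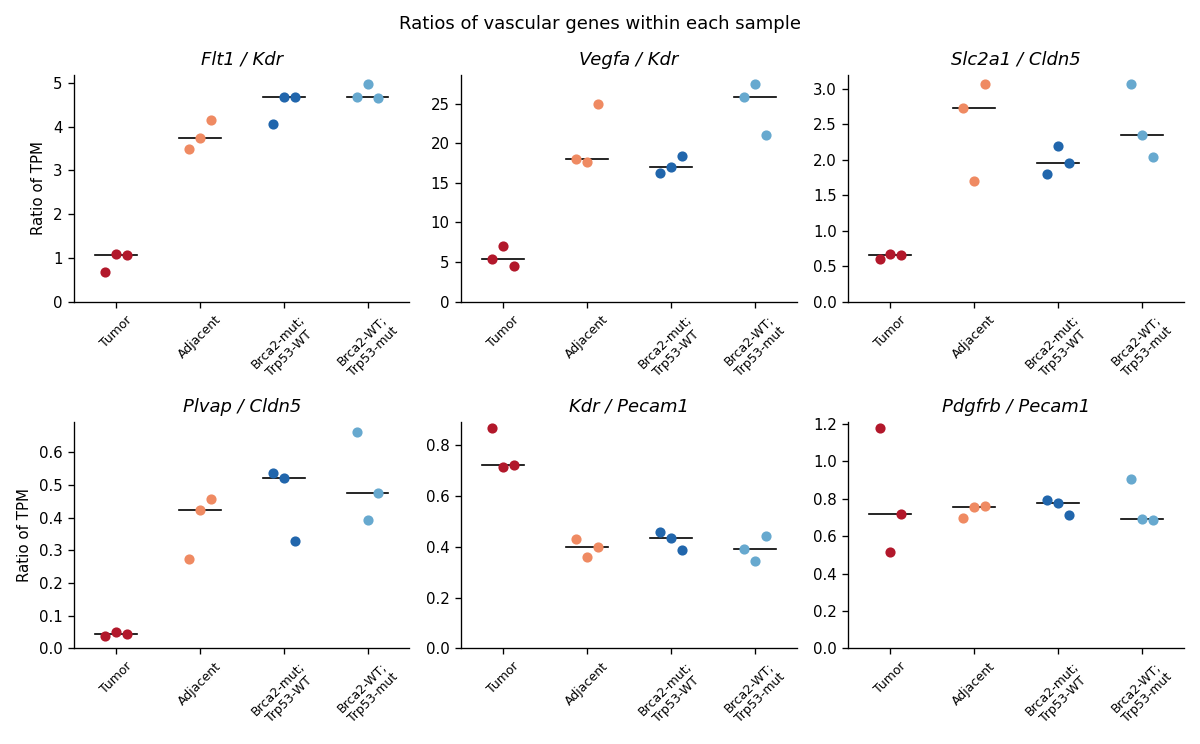
Ratio of the TPM of 2 genes within each sample (linear axes from 0), in the 4 groups; points are samples and lines are group medians. The 3 tumors stand below the other 9 samples in *Flt1*/*Kdr*, *Vegfa*/*Kdr*, *Slc2a1*/*Cldn5* and *Plvap*/*Cldn5*, above them in *Kdr*/*Pecam1*, and above, below and within their range in *Pdgfrb*/*Pecam1*.

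Adjacent cerebellum of the same mice offered a second comparison for each tumor, and it shares the tumor samples with the first. *Plvap* was 12.6, 28.3 and 22.8 TPM in the adjacent samples of GB344, GB359 and GB370, and the tumors were lower by 2.42 ± 0.319 on the log2 scale (adjusted p = 0.00125, limma). *Slc2a1* was 126.6, 114 and 152 TPM in adjacent cerebellum and fell by 1.59 ± 0.2 in tumors (adjusted p = 0.00101). *Vegfa* was 113.6, 107.4 and 175 TPM in adjacent cerebellum and fell by 1.35 ± 0.206 (adjusted p = 0.00224). All 3 genes were lower in every tumor than in every adjacent sample. *Flt1* was 21.9, 22.9 and 29.2 TPM in adjacent cerebellum and fell by 1.45 ± 0.287 (adjusted p = 0.00628). The *Flt1* call is the least secure. It was lost without the expression filter (adjusted p = 0.0111), under median-of-ratios scaling (0.0103) and quantile normalization (0.0138), and without the adjacent sample of GB344 (0.0156), GB359 (0.0216) or GB370 (0.0231) or the tumor of GB359 (0.0212), all by limma, while the log2 fold change stayed between -1.72 and -1.14.

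The other 6 genes were not called between tumor and adjacent cerebellum. *Kdr* was 6.31, 6.10 and 7.03 TPM in adjacent samples GB344, GB359 and GB370, below all 3 tumors, with a log2 fold change of 0.42 and a 95% interval of -0.07 to 0.91 (adjusted p = 0.131, limma). *Pecam1* was 14.7, 17.0 and 17.6 TPM, *Cldn5* 46.3, 67.1 and 49.7 TPM and *Cdh5* 10.5, 11.04 and 9.91 TPM in the same order. *Tek* was 4.18, 6.93 and 6.77 TPM and *Pdgfrb* 10.3, 12.8 and 13.4 TPM. These 5 genes overlapped with the tumors, and their log2 fold changes lay between -0.45 (*Pecam1*) and 0.41 (*Cdh5*). Within mice, *Pecam1* and *Tek* were lower in the tumor in 3 of 3 pairs and *Kdr* was higher in 3 of 3, and none of them was called with the mouse as a replicate block (adjusted p = 0.095, 0.178 and 0.104 by limma). *Cldn5* and *Cdh5* were higher in the tumor in 2 of 3 pairs and *Pdgfrb* lower in 2 of 3. Without the tumor of GB370 the log2 fold change was 0.07 for *Cdh5*, 0.14 for *Cldn5* and 0.245 for *Kdr*, against 0.41, 0.31 and 0.42 with it. For *Pdgfrb* it was -0.08 without the tumor of GB359, against -0.40 with it.

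In this comparison 4 of the 10 genes were called lower and 0 higher, beside 18% and 4.76% of 15845 genes. At an unadjusted p under 0.05, also 4 of the 10 were lower and 0 higher, beside 35.4% and 21.6% of all genes. No overlap was seen for 4 genes lower and 1 higher, beside 38.9% and 23.7% of all genes. Of all calls, 20.9% were higher in tumors, and this share was 37.4% under median-of-ratios scaling and 42.2% under quantile normalization. It was 7.5% without the tumor of GB370, 9.33% without the tumor of GB359, 8.83% without the adjacent sample of GB359 and at most 26.2% with any other sample left out, and under the scalings the centre of all log2 fold changes went from -0.139 to 0.05 and 0.125. The falls of *Plvap*, *Slc2a1* and *Vegfa* passed the rule under both. With the mouse as a replicate block, the paired fit called the same number of the 10 genes (4), and *Flt1* had an adjusted p of 0.0041 by limma. The adjacent samples carried tumor cell markers, whose part in this comparison was not tested.

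**Figure D4:**
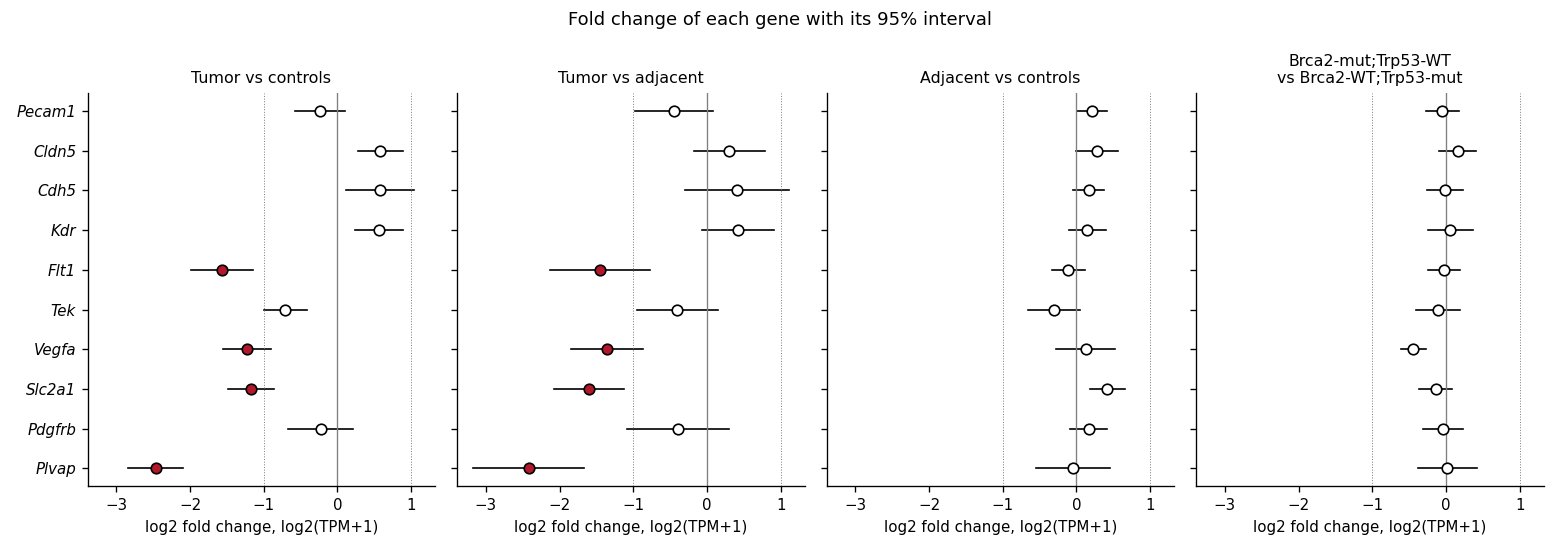
Log2 fold change of each gene on the log2(TPM + 1) scale (points) with its 95% interval (lines) in the 4 comparisons. Filled points were called, dotted lines mark a log2 fold change of 1 in either direction, and the 4 filled points of both tumor comparisons are *Flt1*, *Vegfa*, *Slc2a1* and *Plvap*.

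Adjacent cerebellum was next compared with the control cerebella, to see whether these genes already differed beside a tumor. Limma called 0 of the 10 genes, beside 0.224% of 16091 genes called higher and 0.0124% called lower. At an unadjusted p under 0.05, 2 genes passed, *Slc2a1* and *Pecam1*, beside 34.5% of all genes. *Slc2a1* was higher in every adjacent sample than in every control, by 0.42 ± 0.107 on the log2 scale (adjusted p = 0.0309 by limma), and without the adjacent sample of GB370 by 0.31. It was the only 1 of the 10 without overlap, beside 11.7% of all genes higher throughout and 7.64% lower throughout. In tumors of the same mice *Slc2a1* stood below the controls. *Pecam1* had a log2 fold change of 0.21 (adjusted p = 0.14). *Vegfa* was 175 TPM in the adjacent sample of GB370, above all 6 controls, and within the control range in the other 2.

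The control genotypes were compared before they were pooled. Limma called 0 of the 10 genes between Brca2-mut;Trp53-WT and Brca2-WT;Trp53-mut cerebella, beside 0.0128% of 15575 genes called higher and 0.0449% called lower, and at an unadjusted p under 0.05 only *Vegfa* passed, beside 20.1% of all genes. *Vegfa* was 109.7, 93.8 and 100.4 TPM in Brca2-mut;Trp53-WT mice GB361, GB508 and GB512 and 135.8, 143.9 and 134.7 TPM in Brca2-WT;Trp53-mut mice GB517, GB519 and GB520. All 3 of the former were lower, with a log2 fold change of -0.45 ± 0.0721 (adjusted p = 0.06). It was the only gene of the 10 without overlap, beside 20.3% of all genes lower throughout and 6.7% higher throughout. Choroid plexus markers differed between the same groups, and their part in the *Vegfa* values was not tested. The fall of *Vegfa* in tumors was called against either genotype alone.

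Other genes of vessels and oxygen sensing were read from lists that were chosen with earlier results of these data known. Among 20 further pan-endothelial genes, 2 were called higher in tumors than in controls and 1 lower, beside 14.4% and 21.5% of all genes. Their median log2 fold change was -0.05. *Sox18*, a transcription factor of endothelial development, rose from a control mean of 7.27 TPM to a tumor mean of 199 TPM (log2 fold change 4.57, adjusted p = 5.35e-08). *Ecscr*, an endothelial surface protein, rose by 1.57, and *Ptprb*, the phosphatase that restrains TIE2, fell by 1.32. Without the tumor of GB370, 2 were called lower. *Sox18* was also 13.2 to 81.2 TPM in adjacent cerebellum, against 4.73 to 9.68 TPM in controls (log2 fold change 2.38, adjusted p = 0.0164 by limma). Which cells carried the *Sox18* transcript was not tested. *Vwf* was 12.9 to 18.8 TPM in adjacent cerebellum and 5.69 to 9.17 TPM in controls (1.04, adjusted p = 0.0116 by limma). Neither gene was called between adjacent cerebellum and controls. Against adjacent cerebellum only *Ptprb* was called (-1.34), beside 4.76% of all genes called higher and 18% called lower. At an unadjusted p under 0.05 by limma, 2 were higher and 6 lower, beside 21.6% and 35.4% of all genes. In this comparison 0 were called without the adjacent sample of GB344, GB359 or GB370 or the tumor of GB370.

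Of 20 blood-brain barrier genes, 4 were called higher and 8 lower in tumors than in controls (median -0.43), beside 14.4% and 21.5% of all genes. The lower genes included *Ocln* (-2.53), which encodes the tight-junction protein occludin, *Cgnl1* (-2.32), a junctional scaffold protein, and *Spock2* (-2.79), a matrix proteoglycan that fell from a control mean of 561.8 TPM to 80.99 TPM. Neurons also express *Spock2*. *Slc7a5*, the large neutral amino acid transporter that dividing cells also use, rose by 2.13. The other genes called higher were *Foxf2* (1.47), *Slc38a5* (1.36) and *Apcdd1* (1.22), named after their values had been seen. Against adjacent cerebellum 0 were called higher and 5 lower by limma, beside 4.76% and 18% of all genes. *Spock2*, *Ocln*, *Abcb1a* (-1.90, the efflux pump P-glycoprotein) and *Cgnl1* were at the head, whereas 3 were called higher under either other scaling. At an unadjusted p under 0.05, 5 were higher and 9 lower, beside 21.6% and 35.4% of all genes. Without the tumor of GB359 or the adjacent sample of GB359 or GB370, 3 were called lower, and without the tumor of GB344, 1 was called higher.

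The list of tip cell and sprouting genes had the largest share of higher genes among the vascular lists in tumors against controls. Of 14 tested, 8 were called higher and 3 lower, beside 14.4% and 21.5% of all genes, with a median of 1.2. *Cxcr4*, the chemokine receptor that granule cell progenitors also express, rose from a mean of 6.396 TPM to 189.9 TPM (log2 fold change 4.71). *Aplnr*, the apelin receptor, rose by 2.38 from a mean of 0.345 TPM to 6.35 TPM, *Pgf*, the placental growth factor, which binds FLT1, rose by 2.29, and *Hey1*, a Notch target, rose by 1.87. Other genes of the list went down, and those given here were named after their values had been seen. From controls to tumors, mean TPM went from 12.59 to 5.48 for *Apln*, 50.74 to 16.01 for *Unc5b* and 36.81 to 17.35 for *Mcam*. With a filter of 5 TPM 5 were called higher. Against adjacent cerebellum 1 was called higher (*Aplnr*, 2.14) and 1 lower (*Unc5b*, -1.52), beside 4.76% and 18% of all genes, with a list median of 0.65. At an unadjusted p under 0.05 by limma, 6 of 14 were higher and 3 lower, beside 21.6% and 35.4% of all genes. Under quantile normalization 4 were called higher. In the comparison with adjacent cerebellum, 0 were called higher without the tumor of GB370 or the adjacent sample of GB359 or GB370, and 2 without the tumor of GB344 or GB359. Without the adjacent sample of GB359, 0 were called lower. *Aplnr* was 3.56 to 9.63 TPM in tumors and 0.0925 to 0.961 TPM in adjacent cerebellum.

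Among 15 mural genes tested in tumors against controls, 2 were called higher and 5 lower (median -0.21), beside 14.4% and 21.5% of all genes. *Kcnj8*, a potassium channel subunit of pericytes, rose by 1.81 and *Cspg4*, which encodes NG2 of pericytes and oligodendrocyte precursors, by 1.46. *Atp13a5* (-1.71) and *Des* (-1.59), the muscle intermediate filament desmin, fell. *Kcnj8* ranged from 7.62 to 55.4 TPM across the 3 tumors and from 3.69 to 5.13 TPM across controls. Against adjacent cerebellum 0 were called higher and 4 lower, beside 4.76% and 18% of all genes. The 4 were *Atp13a5* (-1.83), *Des* (-1.70), *Vtn* (-1.22) and *Notch3* (-1.04), and 2 were called lower under either other scaling. At an unadjusted p under 0.05, 1 was higher and 6 lower, beside 21.6% and 35.4% of all genes. The count of 4 was 2 without the tumor or the adjacent sample of GB344 or the adjacent sample of GB370, and 1 without the tumor or the adjacent sample of GB359. Against controls, 3 were called lower without the tumor of GB359, and 1 was called higher without GB361, GB508 or GB517 or with either control genotype alone. *Pdgfrb* itself was not called in any comparison.

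Of 13 other VEGF, angiopoietin and PDGF ligands and receptors, 4 were called higher in tumors than in controls and 1 lower. Over all genes these shares were 14.4% and 21.5%. *Pdgfra* (3.498), the receptor of oligodendrocyte precursors and fibroblasts, *Pgf* (2.29), which is also on the sprouting list, *Pdgfa* (1.74) and *Pdgfc* (1.06) rose, and *Pdgfd* fell by 2.48. With the Brca2-WT;Trp53-mut controls alone, or the Brca2-mut;Trp53-WT controls alone, 2 were called higher. *Pdgfc*, *Pdgfb*, the endothelial ligand of PDGFRB, and *Vegfb* were named after their values had been seen. *Pdgfb* was 6.56 to 9.97 TPM in tumors and 8.33 to 11.8 TPM in controls (log2 fold change -0.36), and *Vegfb* was 75.7 to 87.8 TPM and 136.7 to 159.3 TPM (-0.87), and neither was called. Against adjacent cerebellum *Pdgfd* was the only call (-2.53), beside 4.76% of all genes called higher and 18% called lower. At an unadjusted p under 0.05, 4 were higher and 3 lower, beside 21.6% and 35.4% of all genes. There were 2 higher calls without the tumor of GB344, 2 under median-of-ratios scaling and 3 under quantile normalization.

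Of 20 oxygen sensors, HIF subunits and HIF targets, 6 were called lower in tumors than in controls and 1 higher, with a median of -0.52, and 13 were not called, beside 21.5% of all genes called lower and 14.4% called higher. *Ndrg1*, a stress-induced gene of oligodendrocytes among other cells, fell by 2.57, *Car9*, which encodes a carbonic anhydrase, by 2.39, *Bnip3*, of mitophagy, by 1.78 and *P4ha2*, a collagen hydroxylase subunit, by 1.71. *Car9* went from a mean of 10.6 TPM in controls to 1.15 TPM in tumors. *Kdm3a*, a histone demethylase, was the gene called higher (1.04), and it was named after its value had been seen. It was not called without the tumor of GB359 or GB370, without GB508 or against the Brca2-WT;Trp53-mut controls alone. Against adjacent cerebellum 6 were again called lower and 0 higher, beside 18% and 4.76% of all genes. *Car9* (-2.49) led the list, and 4 were called lower under either other scaling. At an unadjusted p under 0.05, 10 were lower and 0 higher, beside 35.4% and 21.6% of all genes. Between adjacent cerebellum and controls, and between the control genotypes, limma called 0 genes of the 6 lists of vascular and hypoxia genes. At an unadjusted p under 0.05, 22 were higher and 8 lower of 99 genes in the former comparison, beside 22.1% and 12.4% of all genes, and 2 and 16 of 99 in the latter, beside 4.78% and 15.3% of all genes.

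**Figure D5:**
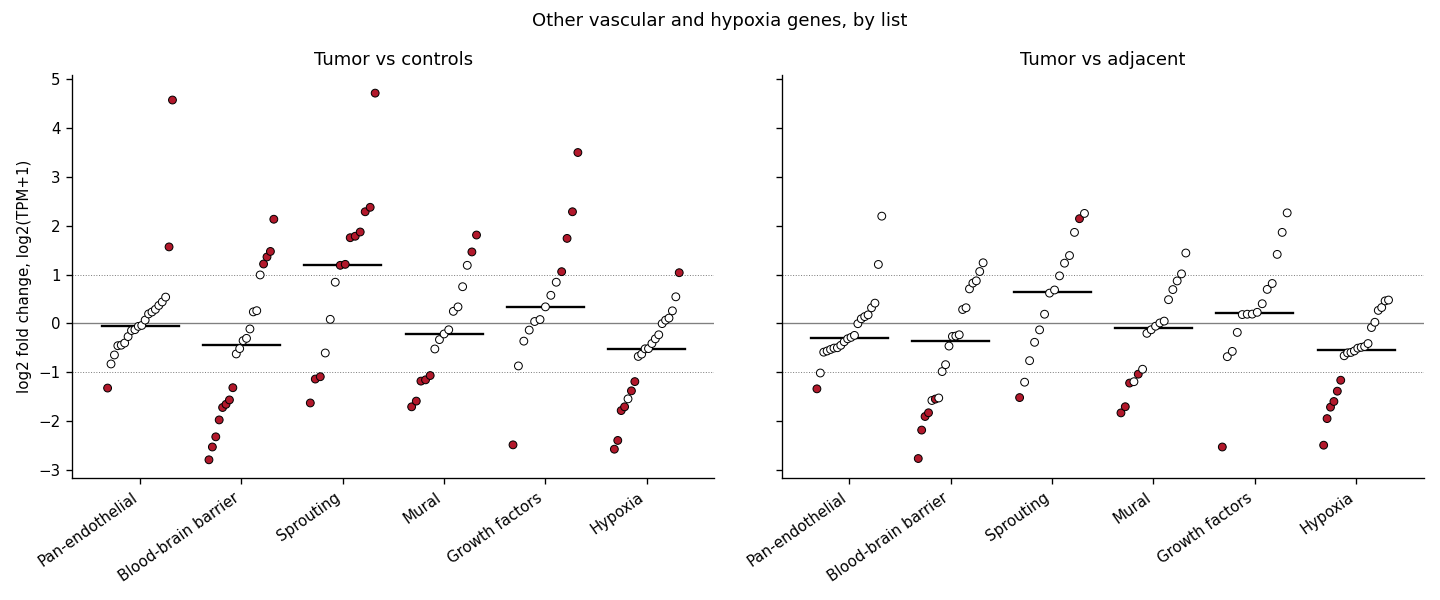
Log2 fold change on the log2(TPM + 1) scale of each tested gene of 6 lists in tumor against control and tumor against adjacent cerebellum. Filled points were called, lines are list medians and dotted lines mark a log2 fold change of 1. The sprouting list has its median at 1.2 against controls, and the hypoxia list at -0.52.

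The genes whose levels tracked each of the 10 most closely were sought among 12727 genes with a mean of at least 5 TPM, the 10 themselves left out. Over all 12 samples *Flt1* was most like *Dync1i1* (Pearson r = 0.993), *Vegfa* most like *Morn1* (0.991), *Plvap* most like *Hmox2* (0.989) and *Slc2a1* most like *Tsc22d3* (0.984). Over the 9 samples without tumors these 4 values were 0.727, 0.957, 0.83 and 0.883. *Kdr* was most like *Psmd1* (0.959), *Cdh5* most like *Mthfd1* (0.967), *Cldn5* most like *Txnl4a* (0.942), *Tek* most like *Tmbim4* (0.955) and *Pecam1* most like *Pqbp1* (0.93), and without tumors these 5 values were 0.857, 0.719, 0.85, 0.918 and 0.885. *Pdgfrb* was most like *Scara3* (0.912, and 0.806 without tumors) and then *Dcn* (0.859, and 0.573 without tumors). Among the genes searched, no endothelial marker of the lists was among the 3 closest of *Pecam1*, *Cldn5*, *Cdh5*, *Kdr*, *Flt1*, *Tek* or *Plvap*. List genes under a mean of 5 TPM, and the 10 genes for each other, could not appear. This absence was therefore partly set by the search, and no conclusion is drawn from it.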

How the data were processed

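Poly(A) RNA of 12 mouse samples was sequenced, and the authors quantified it with Salmon 0.8.1 against mm10 known-gene transcripts. The deposited values are TPM for 24091 genes, with no stated filter and unknown depth, so no counting interval is given. The log2(TPM + 1) scale was used, which understates changes of low genes. A gene entered a comparison if 3 or more of its samples had 1 TPM or more. Tests used limma 3.58.1 (lmFit, eBayes with trend) in R 4.3.3, fitting only the groups compared, with Benjamini-Hochberg adjustment over all genes tested. The thresholds are those of the study's methods, which tested counts. The fit was tested on simulated data.

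The 10 genes and 13 gene lists were chosen with earlier results of these data known. The text names all 10 and the gene most like each of them. Per list and comparison, a rule picked up to the 4 called genes of largest change, or the 2 largest where none was called. The text names only part of these picks, and other list genes were named after their values had been seen. *Hba-a1* and *Hbb-bt* of the blood list were not matched, and *Car9* and *Car12* were matched by synonym. The mouse number pairs tumor and adjacent samples; deviations from group means correlated at 0.249, 0.176 and 0.152 within mice and at most 0.018 between mice. Figures were drawn with matplotlib 3.10.9.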

Additional observations from a re-analysis of the deposited data

How the results depend on the processing

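Alternatives were another pseudocount, filter, scaling, trend setting or threshold, all 4 groups in a fit, 1 control genotype alone, the mouse as a replicate block and each sample left out in turn. Over the 10 genes, 669 refitted values kept their direction and side of the threshold, 7 lost a call (all *Flt1* against adjacent cerebellum), 5 gained one under the lenient threshold and 28 changed sign. The paired fit with the replicate block gave 4 called genes of the 10 and 3542 calls in all, against 3607 without it, and changed no call among the 10.

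With an adjusted p under 0.05 and no fold minimum, 8 of the 10 genes passed in tumor against control and 1 in adjacent against control, and calls over all genes were 11573, 7980 (tumor against adjacent), 2524 (adjacent against control) and 71 (control genotypes), against 5830, 3607, 38 and 9. The 38 calls became 4 without a filter or with Brca2-mut;Trp53-WT controls only, 63 under median-of-ratios scaling, 59 under quantile normalization, 58 without *Mir6236* and 10 without a trend, and their share of higher genes went from 94.7% to 82.5% and 69.5% under the scalings. The 9 calls between control genotypes became 3 without a filter, with a 5 TPM filter, under either scaling and without a trend, 4 without *Mir6236* and 21 with all 4 groups, and the share of higher genes went from 22.2% to 66.7% under the scalings and 50% without *Mir6236*. With 1 sample left out, calls ranged from 2377 to 3482 (tumor against adjacent, lowest without adjacent GB359), 0 to 586 (adjacent against control, highest without adjacent GB370) and 4 to 29 (control genotypes, highest without GB361).

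Log2 fold changes that changed sign were all uncalled. Under quantile normalization *Tek* was 0.00334 in tumor against adjacent and *Kdr* -0.0355 in adjacent against control, where *Vegfa* was -0.0998 with Brca2-WT;Trp53-mut controls only. Between control genotypes, median-of-ratios scaling gave *Pecam1* 0.0588, *Cdh5* 0.0907, *Flt1* 0.0843 and *Pdgfrb* 0.0676, quantile normalization gave *Pecam1* 0.0523, *Cdh5* 0.0983, *Flt1* 0.0624, *Tek* 0.0131 and *Pdgfrb* 0.0592, and leaving out *Mir6236* gave *Cdh5* 0.00255. With 1 sample left out, *Pdgfrb* ranged from -0.40 to 0.0825 in tumor against control, *Plvap* from -0.28 to 0.27 and *Vegfa* from -0.0964 to 0.253 in adjacent against control. Between control genotypes the ranges were -0.0927 to 0.00804 for *Pecam1*, -0.0753 to 0.0258 for *Cdh5*, -0.0252 to 0.139 for *Kdr*, -0.0843 to 0.0483 for *Flt1*, -0.108 to 0.0411 for *Pdgfrb* and -0.12 to 0.19 for *Plvap*. The log2 ratio of *Pdgfrb* to *Pecam1*, tumor minus control, ranged from -0.32 to 0.28. The cause of these changes was not tested. Groups of 3 mice limit precision, and depth is unknown.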

Other observations

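Immune and stromal markers were read in the same samples. Of all genes, 14.4% were called higher and 21.5% lower in tumors than in controls. Microglia and macrophage markers summed to 215.9 to 325.2 TPM in tumors, 111.3 to 217.4 TPM in adjacent cerebellum and 86.05 to 163.7 TPM in controls. Of 9 tested against controls, 3 were called higher in tumors and 0 lower by limma, *Cd68* (log2 fold change 2.33), a lysosomal protein of phagocytes, *Aif1* (2.15), which encodes IBA1, and *C1qa* (1.72), a complement subunit. At an unadjusted p under 0.05, 2 were lower, beside 40.6% of all genes, and without the tumor of GB359 1 was called lower. The median log2 fold change of the list was 0.106. *P2ry12*, *Tmem119* and *Mrc1*, named after their values had been seen, had means of 4.41, 7.12 and 0.583 TPM in tumors. In controls these were 7.77, 8.42 and 1.395 TPM. Fibroblast markers summed to 223.6 to 458.2 TPM in tumors and 142.1 to 201.8 TPM in controls. Of 10 tested, 2 were called higher and 2 lower, with a median log2 fold change of -0.01, so the list did not rise as a whole. *Pdgfra*, also of oligodendrocyte precursors, had a mean of 139.4 TPM in tumors and 9.87 TPM in controls. *Igf2* ranged from 12.3 to 212.2 TPM across the tumors. The collagen gene *Col3a1* rose by 2.86 and *Pdgfra* by 3.498, while *Slc6a13* and *Ogn*, genes of meningeal fibroblasts, fell by 2.63 and 2.08. Without the tumor of GB359, 4 fibroblast markers were called higher in place of 2. *Col3a1* was also called higher in adjacent cerebellum than in controls (1.11, adjusted p = 0.00883, limma), as was *Atoh1* (4.62, adjusted p = 0.00883), the granule progenitor transcription factor.

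Mature cerebellar markers of granule, Purkinje and myelinating cells were called lower in tumors for 10 of 10 genes in both tumor comparisons, and tumor cell markers were called higher for 10 of 10 against controls and 1 of 10 (*Gli1*, 2.01) against adjacent cerebellum. The last count was 0 without any 1 of the tumors or the adjacent sample of GB359 and 3 without the adjacent sample of GB370. At an unadjusted p under 0.05 by limma, 10 of 10 tumor cell markers were higher than in adjacent cerebellum, beside 21.6% of all genes. Their median log2 fold change was 2.47. Over all genes, 14.4% were called higher and 21.5% lower against controls, and 4.76% and 18% against adjacent cerebellum.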
